A study of Mus musculus with 9 samples.

Results

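The genes described here are asparagine synthetase, Asns, and 9 genes of the amino acid response that are known targets or partners of the transcription factor ATF4: Atf4 itself, Psat1, Phgdh, Shmt2, Slc7a11, Slc3a2, Trib3, Ddit3 and Chac1. The set was chosen by the very high Asns signal measured on these arrays, so that height is given as a description with no test. Every probe set whose single annotated symbol is one of the 10 genes was kept and treated separately, which gave 21 of the 22626 probe sets on the array. Of these, 19 exceeded the median signal of their array on at least 2 arrays and were tested, among 12575 such probe sets in all.

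The lateral nasal gland opens into the front of the nasal cavity and secretes odorant-binding and defence proteins, and RNA was taken from glands of male mice aged 2 to 3 months. Cyp2g1-null mice, which lack a cytochrome P450 of the olfactory mucosa and its glands and are on a mixed B6 and 129/Sv background, gave 3 arrays. Wild-type B6 mice gave 4 arrays and wild-type 129/Sv mice gave 2, and both strains served as controls for the mixed background. Each array held RNA pooled from the glands of 10 mice, so animal-to-animal spread is not seen, and the spread between arrays is that between pools. The allele of the null line, its share of each background and any scan date are not given in the sources used here.

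Array medians lay between 518.6 and 550.0 signal units, and log2 signals of any pair of arrays correlated at 0.925 to 0.942. The Cyp2g1 probe set read 55.7, 141 and 201 in null arrays, 5917, 748, 2007 and 2799 in B6 arrays and 208 and 981 in 129/Sv arrays; whether it lies inside the deleted stretch is not known here. The null arrays lay below all the others, though null array 3 and 129/Sv array 1 were close. Of 15 listed secretory proteins of this gland, 11 had a probe set and 8 exceeded the array median on at least 2 arrays, with summed signals of 520557 to 641505 in null, 435002 to 570139 in B6 and 377539 to 400864 in 129/Sv arrays, while Bpifa2, Dcpp1 and Lcn4 never exceeded it. Scgb1b27 alone read 94093 to 124356 in null, 58361 to 96367 in B6 and 15680 to 18403.5 in 129/Sv arrays, while Aqp5 ran from 22669 to 28080 on all arrays. Car6 read 29312 to 70057.5 in null, 387.5 to 8017.5 in B6 and 10385 and 66481 in 129/Sv arrays. Lcn3 ran the other way, at 939 to 1653 in null, 2412 to 3269 in B6 and 1743 and 2088 in 129/Sv arrays. Of the 8 tested, 3 had a positive log2 fold change in null against B6 and 5 in null against 129/Sv. All 8 skeletal muscle markers stayed under the median on every array. Ciliated cell markers summed to 19887 to 21063 in null, 12485 to 15531 in B6 and 13906 to 16363 in 129/Sv arrays. Macrophage and neutrophil markers summed to 39845 to 46346 in null, 32439 to 35929 in B6 and 36853 to 43147 in 129/Sv arrays. Lyz2 made up most of each sum, at 31183 to 36646 in null, 22601 to 26705 in B6 and 29141 to 35654 in 129/Sv arrays. Over the 12 probe sets of this list tested, the median log2 fold change of null against B6 was -0.11, and 6 were positive. Immediate early genes, which respond within minutes to stimuli, summed to 47165 to 92079 in null, 32243 to 42999 in B6 and 35904 to 47261 in 129/Sv arrays. Null array 2 alone made the high end, and null arrays 1 and 3 summed to 47252 and 47165. The part of these shifts in the values that follow was not tested, and in such bulk RNA a smaller share of a cell type and less RNA per cell cannot be told apart.

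Asparagine synthetase makes asparagine from aspartate, taking the amino group from glutamine. When amino acids run short, uncharged tRNA activates the kinase GCN2, and when proteins misfold in the endoplasmic reticulum the kinase PERK is activated. Both phosphorylate the initiation factor eIF2, which lowers general translation while translation of Atf4 mRNA rises. ATF4 then pairs with C/EBP and other bZIP proteins on composite sites called C/EBP-ATF response elements. Its targets include enzymes of asparagine and serine synthesis, amino acid transporters, tRNA synthetases, and feedback or death regulators such as Trib3, Ddit3 and Chac1. Because ATF4 is controlled largely at translation, its mRNA level need not follow its activity. The pathway is also active in secretory cells, which use large amounts of amino acids.

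The core letters of that element, TGATGNAA, and their reverse complement, TTNCATCA, were searched on both strands of RefSeq promoter windows of build GRCm38.p6, each running from 250 bases before to 50 bases after an annotated start. All 10 genes had a window, and Psat1 had 2. The letters occurred in 4 of the 11 windows, those of Asns, Chac1, Trib3 and Slc7a11, and in 1304 of all 32851 windows, which is 3.97%. These 4 windows are shown because they let the element be compared across members, with the match in capitals and the sequence read along the gene's own strand.
Asns, chr6:7693160-7693459, minus strand: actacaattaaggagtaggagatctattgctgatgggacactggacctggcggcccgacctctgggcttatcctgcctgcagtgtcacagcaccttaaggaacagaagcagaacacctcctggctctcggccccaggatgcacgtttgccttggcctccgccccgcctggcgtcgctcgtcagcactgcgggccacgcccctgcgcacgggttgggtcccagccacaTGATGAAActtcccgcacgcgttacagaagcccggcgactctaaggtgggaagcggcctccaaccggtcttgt
Chac1, chr2:119350992-119351291, plus strand: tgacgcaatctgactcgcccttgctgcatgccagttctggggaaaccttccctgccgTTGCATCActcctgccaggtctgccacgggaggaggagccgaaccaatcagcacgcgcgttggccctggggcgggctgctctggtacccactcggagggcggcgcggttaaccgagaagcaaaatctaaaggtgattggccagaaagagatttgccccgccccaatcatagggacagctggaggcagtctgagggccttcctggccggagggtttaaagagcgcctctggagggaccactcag
Trib3, chr2:152344011-152344310, minus strand: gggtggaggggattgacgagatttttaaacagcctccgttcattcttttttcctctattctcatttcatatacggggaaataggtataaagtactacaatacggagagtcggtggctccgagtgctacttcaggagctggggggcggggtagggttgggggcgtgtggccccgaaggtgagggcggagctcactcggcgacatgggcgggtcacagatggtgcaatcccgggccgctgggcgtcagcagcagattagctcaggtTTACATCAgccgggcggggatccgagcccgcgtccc
Slc7a11, chr3:50443564-50443863, minus strand: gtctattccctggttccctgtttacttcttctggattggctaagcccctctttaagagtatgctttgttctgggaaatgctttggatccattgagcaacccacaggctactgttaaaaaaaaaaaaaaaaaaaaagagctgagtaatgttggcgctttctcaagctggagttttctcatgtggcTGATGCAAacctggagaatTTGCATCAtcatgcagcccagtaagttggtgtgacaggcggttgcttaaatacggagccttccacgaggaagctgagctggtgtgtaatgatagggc
Counting the first transcribed base as 1, with no position 0, the Asns match TGATGAAA began at position -23 and the Trib3 match TTACATCA at position 15. The Chac1 match TTGCATCA began at position -193. Slc7a11 held TGATGCAA from position -66 and TTGCATCA from position -47, on opposite strands, so its window is the only one of the 4 with a pair. The windows of Atf4, Psat1, Phgdh, Shmt2, Slc3a2 and Ddit3 held neither form. A match describes these letters and shows no binding, and a missing one says only that the letters are not in this window.

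Asns, on chromosome 6, had one of the brightest signals of the gland on every array. Its brighter probe set, 1451095_at, read 37693, 41309 and 41221 in null arrays, 41845, 51499.8, 42133 and 42406 in B6 arrays and 46094 and 47433 in 129/Sv arrays. All 3 null arrays lay below all 6 wild-type arrays, and B6 array 2 stood above the rest. The signal exceeded that of 99.18% to 99.49% of probe sets, depending on the array, which placed it between rank 116 and rank 185. Probe sets differ in affinity, so this is a rank of signals and not of mRNA amounts. The highest array was 1.37 times the lowest, and the spread left within groups was 0.11 on the log2 scale, against a median of 0.21 over all probe sets tested.

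The second Asns probe set, 1433966_x_at, read 37099, 36551 and 34958 in null arrays, 35375, 38036, 30458 and 38031 in B6 arrays and 44684 and 39927 in 129/Sv arrays. Here the null arrays fell inside the B6 range, and both 129/Sv arrays were the highest. It was brighter than 98.9% to 99.29% of probe sets.

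No Asns difference between groups was called. The mean signal of 1451095_at was 40074.5 ± 2063 in null arrays (SD, n = 3), 44471 ± 4692 in B6 arrays (SD, n = 4) and 46764 ± 946.4 in 129/Sv arrays (SD, n = 2). A difference was called here when limma's p, adjusted by the Benjamini-Hochberg method over all 12575 probe sets, was under 0.05. The log2 fold change of null against B6 was -0.15 (SE 0.0852, 95% interval -0.33 to 0.04), with an adjusted p of 0.465. Against 129/Sv it was -0.22 (SE 0.102, interval -0.44 to -0.0049), with an adjusted p of 0.400. B6 against 129/Sv gave -0.08 (adjusted p = 0.754). An exact two-sided permutation test of this probe set alone, 3 null against 6 wild-type arrays, gave a difference of -0.17 and p = 0.0357. The smallest p the 84 splits allow is 0.0119. B6 and 129/Sv arrays were pooled, so the test takes the strains as alike for this probe set. With quantile normalization the p of this test was 0.155, and with each array left out in turn it ran from 0.0357 to 0.107. Of all probe sets tested, 1.96% also had all 3 null arrays below all 6 wild-type arrays. For 1433966_x_at the same difference was -0.05 and the exact permutation p was 0.619. By limma, this second probe set gave 0.03 for null against B6 (SE 0.0883, adjusted p = 0.900) and -0.22 for null against 129/Sv (SE 0.105, adjusted p = 0.428), the same size as the first probe set. B6 against 129/Sv gave -0.26 (unadjusted p = 0.0225, adjusted p = 0.190). Its 129/Sv arrays lay above all null and B6 arrays, and none of these differences was called.

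**Figure D1:**
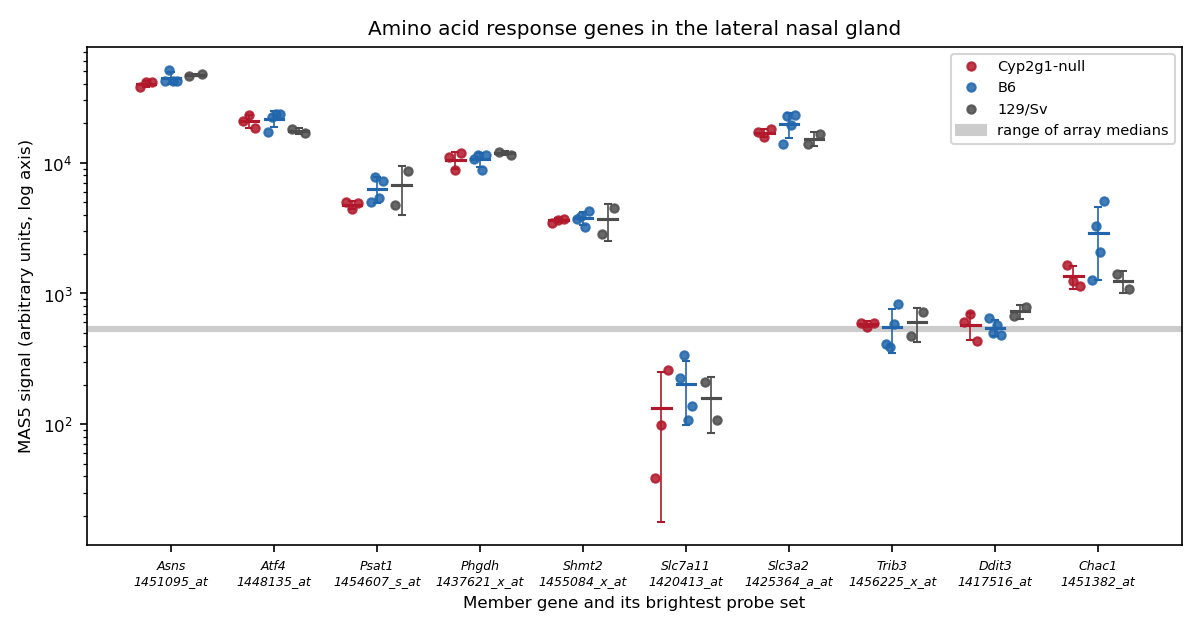
MAS5 signal in arbitrary units, on a log axis, of the brightest probe set of each of the 10 genes; points are arrays (3 null, 4 B6, 2 129/Sv), horizontal bars are means, error bars are SD, and the grey band is the range of array medians. For Asns the arrays lie within 1.37 times of each other, the B6 arrays of Chac1 spread from 1264 to 5086, and Slc7a11 lies under the grey band.

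For Atf4, on chromosome 15, probe set 1448135_at read 20842, 22972 and 18501 in null arrays, 17200.1, 22404, 23619.5 and 23769 in B6 arrays and 18222 and 16772 in 129/Sv arrays. The null arrays lay just above both 129/Sv arrays, and the B6 range overlapped both groups, with B6 arrays 2 to 4 near or above the brightest null array and B6 array 1 low beside the 129/Sv arrays. Probe set 1438992_x_at read 3616, 3635 and 3285 in null arrays, 3289, 5813, 5736 and 6145 in B6 arrays and 3287 and 4869.6 in 129/Sv arrays. Again B6 array 1 was at the null level while the other B6 arrays were higher. Null against B6 gave log2 fold changes of -0.06 (adjusted p = 0.858) and -0.54 (SE 0.194, interval -0.95 to -0.12, adjusted p = 0.206), and neither was called. The third Atf4 probe set, 1439258_at, stayed between 46.6 and 295 on all arrays, under every array median, and was not tested.

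Phosphoserine aminotransferase, Psat1, on chromosome 19, carries out a middle step of serine synthesis. Its brighter probe set, 1454607_s_at, read 4984, 4401 and 4904 in null arrays, 4971, 7798, 5329 and 7217 in B6 arrays and 4778 and 8634 in 129/Sv arrays. The null arrays clustered at the low end, but B6 array 1 and 129/Sv array 1 lay at or under the brightest null arrays, so the groups overlapped. Null against B6 gave -0.38 on the log2 scale (SE 0.189, adjusted p = 0.376), and null against 129/Sv gave -0.43 (SE 0.226), neither called. The second probe set, 1451064_a_at, ran from 2573 to 5913, and its fold change against B6 was -0.44 (adjusted p = 0.44). The 2 arrays of 129/Sv differed from each other more than the group means did.

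Phosphoglycerate dehydrogenase, Phgdh, on chromosome 3, takes the first step of serine synthesis, and it held the only called difference among the members. One of its 4 probe sets, 1454714_x_at, read 11188, 10923 and 11543 in null arrays, 10586, 13607, 12493 and 12741 in B6 arrays and 518 and 246 in 129/Sv arrays. The null and B6 arrays overlapped in a narrow band, while both 129/Sv arrays lay under their array medians. Means were 11218 ± 311.0 in null (SD, n = 3), 12357 ± 1273 in B6 (SD, n = 4) and 382 ± 192 in 129/Sv arrays (SD, n = 2). Null exceeded 129/Sv by 4.91 on the log2 scale (SE 0.215, limma adjusted p = 5.867e-09), and B6 exceeded 129/Sv by 5.04 (SE 0.204, adjusted p = 1.846e-09). Null against B6 gave -0.13 (adjusted p = 0.782). Because the 129/Sv signals are that low, the size of the fold is uncertain.

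No other single-symbol Phgdh probe set was called in these comparisons. Probe set 1437621_x_at read 11004, 8793 and 11838 in null arrays, 10708, 11482, 8766 and 11436 in B6 arrays and 12168 and 11517 in 129/Sv arrays, with a null range that overlapped both strains. Probe set 1426658_x_at read 8586, 8928 and 9573 in null arrays, 6619, 10060.0, 8956 and 9985 in B6 arrays and 6157 and 7358 in 129/Sv arrays. Its 129/Sv arrays were lower than all null arrays, with a log2 fold change of 0.42 for null against 129/Sv (adjusted p = 0.270), not called. Probe set 1456584_x_at stayed between 2558 and 3247 on all arrays.

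A further pair of probe sets is annotated to Phgdh and to another gene at once and so was not counted among the 21. Of these, 1456471_x_at, shared with Gm6756, read 5498, 4499 and 4263 in null arrays, 4284, 4641, 3588 and 4468 in B6 arrays and 348 and 449 in 129/Sv arrays. It repeated the gap, at 3.53 for null against 129/Sv (adjusted p = 9.336e-09) and 3.37 for B6 against 129/Sv (adjusted p = 7.533e-09). The other, 1426657_s_at, shared with Gm8096, read 3203, 3505 and 3901 in null arrays, 2827, 3861, 3561 and 4119 in B6 arrays and 4440.5 and 5593 in 129/Sv arrays, with 129/Sv at the top, and was not called (B6 against 129/Sv, -0.48, adjusted p = 0.101). All single-symbol Phgdh probe sets are of the type that can also bind other transcripts, and which of them follows Phgdh mRNA was not tested. Across 2749 genes with at least 2 probe sets tested, the spread between probe sets in the B6 against 129/Sv fold change had a median of 0.24. For Phgdh the spread was 5.21, rank 2 among these genes from the largest down. It was 0.73 for Shmt2, 0.31 for Trib3, 0.18 for Asns, 0.17 for Psat1 and 0.04 for Atf4.

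**Figure D2:**
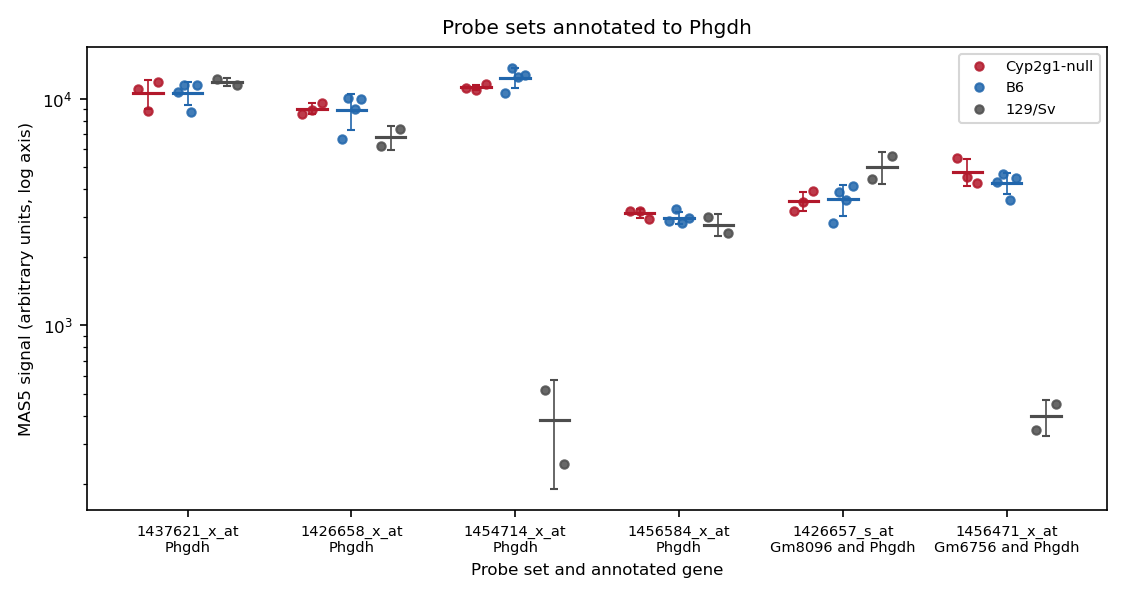
MAS5 signal in arbitrary units, on a log axis, of the 4 probe sets annotated to Phgdh alone and the 2 annotated to Phgdh and a second gene; points are arrays, horizontal bars are means and error bars are SD for 3 null, 4 B6 and 2 129/Sv arrays. In 1454714_x_at and 1456471_x_at the 129/Sv arrays lie far under the null and B6 arrays, and in the other 4 they do not.

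Mitochondrial serine hydroxymethyltransferase, Shmt2, on chromosome 10, splits serine to glycine and a one-carbon unit. Its brightest probe set, 1455084_x_at, read 3486, 3668 and 3742 in null arrays, 3680.4, 3908, 3197 and 4282 in B6 arrays and 2871 and 4493 in 129/Sv arrays. The null arrays were close together inside both strain ranges, and the log2 fold change of null against B6 was -0.05 (SE 0.144, interval -0.36 to 0.27). Probe set 1426423_at ran from 1703 to 2659 and gave -0.08 (SE 0.159). The dimmer 1455985_x_at and 1434204_x_at ran from 231 to 1432 and from 156 to 695, and none of the 4 was called in any comparison.

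Of the transporter pair, neither member was called. Slc3a2, on chromosome 19, encodes the heavy chain that carries several amino acid exchangers to the membrane, and read 17050.4, 15623 and 18116 in null arrays, 13977, 22889, 19376 and 23150.1 in B6 arrays and 13872 and 16508 in 129/Sv arrays. B6 arrays 2 to 4 were the highest, and B6 array 1 lay with 129/Sv array 1 at the bottom. Null against B6 gave -0.20 (SE 0.148, adjusted p = 0.568) and B6 against 129/Sv gave 0.36 (SE 0.168, adjusted p = 0.283), neither called. Slc7a11, on chromosome 3, is the light chain that pairs with it to exchange cystine for glutamate. It read 38.8, 99 and 262 in null arrays, 225, 337, 107 and 139 in B6 arrays and 210.2 and 107 in 129/Sv arrays. These signals were under the array median on all 9 arrays and overlapped between all groups, so Slc7a11 was outside the tested set. In a fit with no filter, null against B6 gave -0.73 (SE 0.616, adjusted p = 0.736).

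The 3 stress-side targets had low to moderate signals. Trib3, on chromosome 2, a pseudokinase that feeds back on ATF4, read 598, 551 and 599.6 in null arrays, 412, 391, 587 and 835 in B6 arrays and 476 and 726 in 129/Sv arrays by probe set 1456225_x_at, close to the array medians. The null arrays lay within the B6 range, and the log2 fold change of null against B6 was 0.13 (SE 0.281). Its other probe set, 1426065_a_at, ran from 240 to 963. Ddit3, on chromosome 10, the bZIP protein CHOP of unresolved stress, read 604, 694 and 431 in null arrays, 647, 501, 569 and 479 in B6 arrays and 669 and 792 in 129/Sv arrays. The null range overlapped both strains and both 129/Sv arrays lay above all B6 arrays, and B6 against 129/Sv gave -0.41 (SE 0.26, adjusted p = 0.473). None of these probe sets was called in any comparison.

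Chac1, on chromosome 2, which breaks down glutathione and is a strongly inducible ATF4 target, varied widely among the B6 pools. It read 1646, 1255 and 1148 in null arrays, 1264, 3257, 2080.2 and 5086 in B6 arrays and 1419 and 1084 in 129/Sv arrays. B6 arrays 2 to 4 lay above every other array, whereas B6 array 1 fell among the null and 129/Sv arrays. Means were 1350.1 ± 262 in null (SD, n = 3), 2922 ± 1659 in B6 (SD, n = 4) and 1252 ± 237 in 129/Sv arrays (SD, n = 2). Null against B6 gave -0.94 (SE 0.338, interval -1.66 to -0.21, adjusted p = 0.205) and B6 against 129/Sv gave 1.04 (SE 0.383, interval 0.22 to 1.86, adjusted p = 0.161), neither called.

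Counted over the members, null against B6 called 0 of the 19 probe sets by limma, against 2.18% of all probe sets tested, and 2 had an unadjusted p under 0.05, as had 14.4% of all. Null against 129/Sv called 1, the Phgdh probe set, higher, against a background of 2.04%, and 3 of the 19 had an unadjusted p under 0.05, as had 12% of all. Null against the mean of both strains, each weighted equally, called the same probe set, higher by 2.39 (SE 0.170, adjusted p = 2.306e-06), against a background of 1.22%. B6 against 129/Sv called it too, against a background of 5.19%, and 6 of the 19 had an unadjusted p under 0.05, as had 17.4% of all. The median log2 fold change of the 19 was -0.08 in null against B6, where the median of all tested was 0.02, and -0.04 in null against 129/Sv, where it was 0.00. In B6 against 129/Sv it was 0.10, where all tested had -0.01. The comparisons share arrays, so their counts are not independent.

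**Figure D3:**
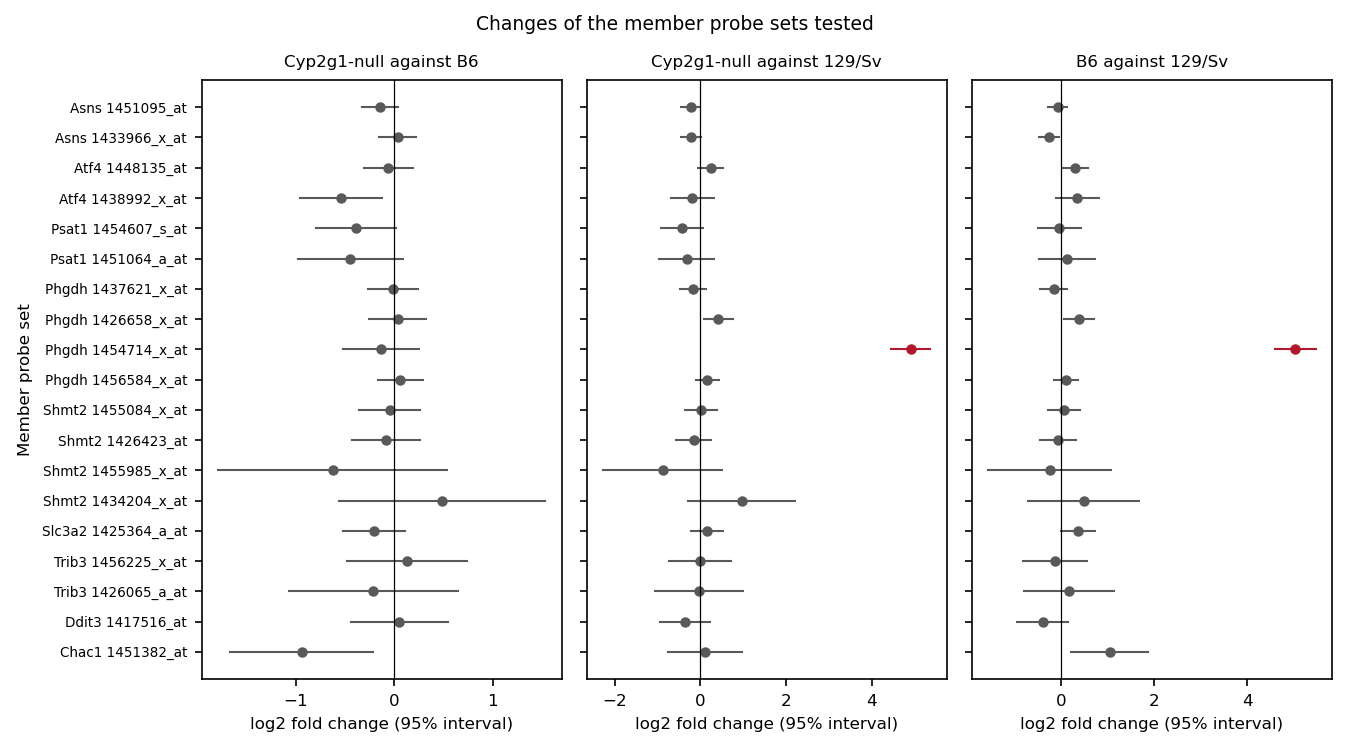
Log2 fold change with 95% interval of each of the 19 member probe sets tested, in Cyp2g1-null against B6, Cyp2g1-null against 129/Sv and B6 against 129/Sv; the panels have different horizontal scales, and red marks an adjusted p under 0.05. Phgdh 1454714_x_at is red in both comparisons with 129/Sv, and no probe set is red against B6.

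B6 array 1 stood apart from the other B6 arrays for many of the members, a choice of array made after its values were seen. Of the 19 tested probe sets, 11 had their lowest B6 signal on it, against 28.1% of all probe sets tested. The mean of B6 arrays 2 to 4 was 2.75 times B6 array 1 for Chac1, 1.56 times for Slc3a2, 1.79 times for Atf4 1438992_x_at and 1.35 times for Atf4 1448135_at. For Ddit3 it was 0.798 times, so Ddit3 was highest there. The same array carried the highest summed signal of the olfactory neuron markers, 9457, against 2439, 4613 and 6499 in B6 arrays 2 to 4, 2083 to 5934 in null arrays and 1703 to 2561 in 129/Sv arrays. Of the 10 listed olfactory markers, 7 had a probe set and 5 exceeded the array median on at least 2 arrays. The part of that tissue difference in the member values was not tested.

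B6 array 1 was singled out because many members were low on it, so p-values of fits without it are descriptions and not tests. Without B6 array 1, 2 member probe sets were called lower in null than in B6. These were Chac1, at -1.28 (SE 0.255, adjusted p = 0.0127), and Atf4 1438992_x_at, at -0.75 (SE 0.129, adjusted p = 0.00516), against 2.3% of all probe sets called lower. In B6 against 129/Sv, 6 were called higher, against 3.7% of all probe sets. Beside Phgdh 1454714_x_at, at 5.11, they were Chac1 at 1.38 (adjusted p = 0.0101), Slc3a2 at 0.52 (adjusted p = 0.012), Phgdh 1426658_x_at at 0.52 (adjusted p = 0.0101), and Atf4 at 0.56 (adjusted p = 0.0342) and 0.41 (adjusted p = 0.0249). Without B6 arrays 1 and 2 the counts were 2 lower, against 1.97% of all probe sets, and 5 higher, against 3.23%. Atf4 1438992_x_at was the one no longer called in B6 against 129/Sv, at 0.57 (adjusted p = 0.0588). The 2 null calls were again Atf4 1438992_x_at, at -0.76 (adjusted p = 0.012), and Chac1, at -1.28 (adjusted p = 0.0305). With array weights, which keep all 9 arrays and are estimated from the same data, Atf4 1438992_x_at was called in null against B6, at -0.62 (limma adjusted p = 0.0479). That fit called 490 of all 12575 probe sets, against 274 without weights.

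**Figure D4:**
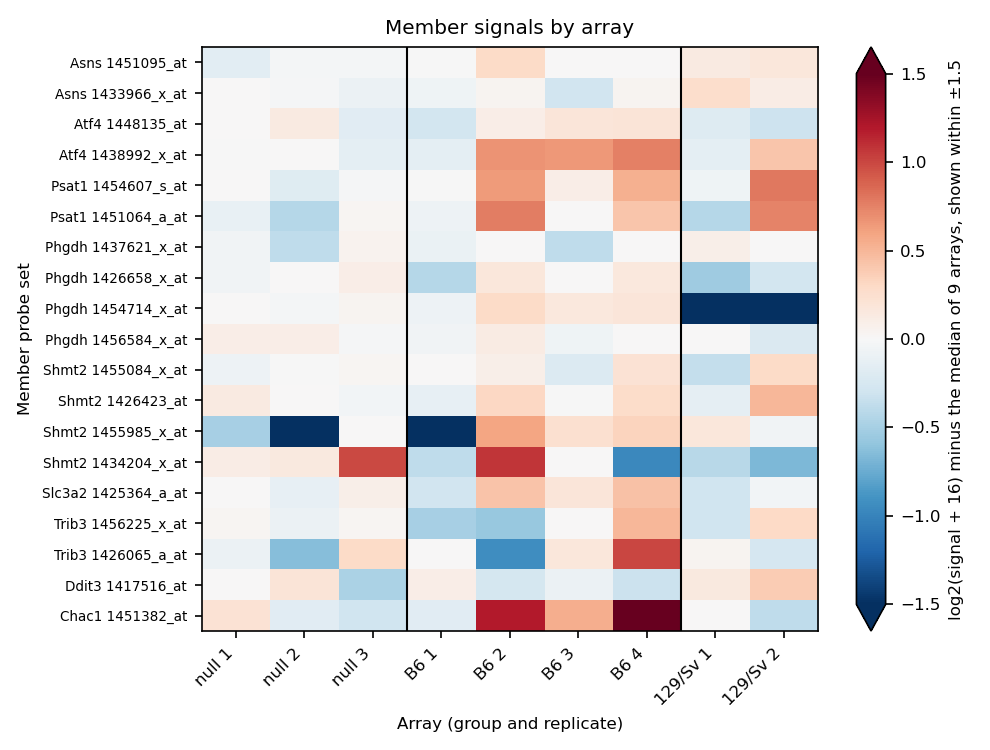
Log2(signal + 16) of each of the 19 member probe sets tested on each of the 9 arrays, as the difference from the probe set's median over the arrays, with colours ending at ±1.5. B6 array 1 is blue where B6 arrays 2 to 4 are red for Chac1, Slc3a2 and Atf4, and Phgdh 1454714_x_at reaches the deepest blue on the 129/Sv arrays.

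No relation of another member to Asns across the arrays passed adjustment. Log2 signals of the other 20 member probe sets were set against Asns 1451095_at over the 9 arrays. The second Asns probe set itself correlated at r = 0.427 (Spearman's rho = 0.65), and 11.8% of all 11601 single-symbol probe sets compared had a higher r. Of the 19 probe sets of other members, 12 had a positive r, and r ran from -0.437 to 0.661. The highest was Psat1 1454607_s_at, at r = 0.661 (exact permutation p = 0.0436, adjusted over the 20 relations 0.523) and rho = 0.583 (exact permutation p = 0.108). Without the 2 arrays farthest from the Asns median, 129/Sv array 2 and B6 array 2, its r was 0.0664. Leaving these arrays out also narrows the range of Asns, so the lower r cannot decide whether the relation rests on them. With each group's mean subtracted, r of this Psat1 probe set over the 9 arrays was 0.476.

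Among the brightest probe sets of the 10 genes, 45 pairs were compared, an analysis added after the data were seen. None passed adjustment, 5 had an unadjusted exact permutation p under 0.05 and 30 were positive. The pair with the smallest p was Slc3a2 and Chac1, at r = 0.828 (exact permutation p = 0.00538, adjusted p = 0.242) and rho = 0.617. Its r was 0.769 with group means subtracted. Without the 2 arrays farthest from the Slc3a2 median, B6 arrays 2 and 4, it was 0.407. Leaving them out also narrows the range of Slc3a2, so this lower r decides nothing about those arrays. Atf4 and Chac1 gave r = 0.709 (exact permutation p = 0.0263, adjusted p = 0.392). Beside B6 arrays 2 to 4, Slc3a2, Chac1 and Atf4 were all low on B6 array 1, as described above. Over all 9 arrays, Chac1 on B6 array 1 (1264) lay among the null and 129/Sv arrays (1084 to 1646). On B6 arrays 2 to 4 it read 3257, 2080 and 5086. Which arrays the pair relations rest on was not tested.

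The genes whose pattern was most like Asns 1451095_at over the 9 arrays, by Pearson's r, were not members. Gspt1, a translation termination factor, had r = 0.955, followed by Spata13 at 0.951, Cdc42se1 at 0.934 and Tdrd3 at 0.915. Csgalnact2 was at 0.901, Ganab at 0.899, Dynlt3 at 0.898 and Arl1 at 0.894. These are the 8 highest values among the 11601 compared, where the 99th percentile was 0.736, and they are given as a description.

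The wider amino acid lists held few calls, and that of the largest size was in the signal of a glutamine carrier, Slc1a5. Among amino acid transporters, 13 probe sets of 9 genes were tested. Null against B6 called 1 of them, where 2.18% of all probe sets were called, null against 129/Sv called 1, against 2.04%, and B6 against 129/Sv called 2, against 5.19%. Slc1a5, on chromosome 7, the main glutamine uptake carrier of many proliferating cells, read 1283, 2004 and 1362 in null arrays, 6443, 7824, 6153 and 7091 in B6 arrays and 1578 and 1599.6 in 129/Sv arrays. The B6 arrays lay far above all others, and the null and 129/Sv arrays overlapped. Null was lower than B6 by a log2 fold change of -2.16 (SE 0.148, adjusted p = 2.381e-06), and B6 was higher than 129/Sv by 2.10 (adjusted p = 3.236e-06). Null against 129/Sv gave -0.06 (adjusted p = 0.940). Cyp2g1 is also on chromosome 7, and whether that bears on the Slc1a5 values was not tested. Slc38a1, on chromosome 15, a sodium-coupled glutamine carrier, read 2752, 2856 and 2659.7 in null arrays, 2193, 3607, 2696 and 2396 in B6 arrays and 1109.8 and 908 in 129/Sv arrays. Here the 129/Sv arrays were the low ones, with 1.44 for null against 129/Sv (adjusted p = 0.000539) and 1.40 for B6 against 129/Sv (adjusted p = 0.000213). No other transporter probe set was called.

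Of 19 probe sets for aspartate, asparagine and glutamine metabolism, 1 was called in null against B6, 2 in null against 129/Sv and 2 in B6 against 129/Sv, beside the same shares of all probe sets, and they belong to Glul and Ctps. Glul, on chromosome 1, glutamine synthetase, read 1880.4, 1729 and 2004 in null arrays, 1768, 1482, 1818 and 2292 in B6 arrays and 2991 and 3946 in 129/Sv arrays by probe set 1426235_a_at. Both 129/Sv arrays exceeded all null and B6 arrays. The log2 fold change against 129/Sv was -0.87 for null (adjusted p = 0.0209) and -0.91 for B6 (adjusted p = 0.00544), and the second probe set gave -0.89 and -0.90, also called. Ctps, on chromosome 4, which uses glutamine to make CTP, read 1029, 736 and 766 in null arrays, 1502, 1930.0, 1326 and 1650.5 in B6 arrays and 1149.9 and 948 in 129/Sv arrays. The null arrays lay below all B6 arrays, with a log2 fold change of -0.92 (SE 0.170, adjusted p = 0.0101), while null against 129/Sv gave -0.32 (adjusted p = 0.610). For Glul 1426235_a_at, the null call against 129/Sv did not pass without 129/Sv array 2 or without any 1 null array, and the B6 call did not pass without 129/Sv array 2. The Ctps call did not pass without null array 2 or without null array 3.

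**Figure D5:**
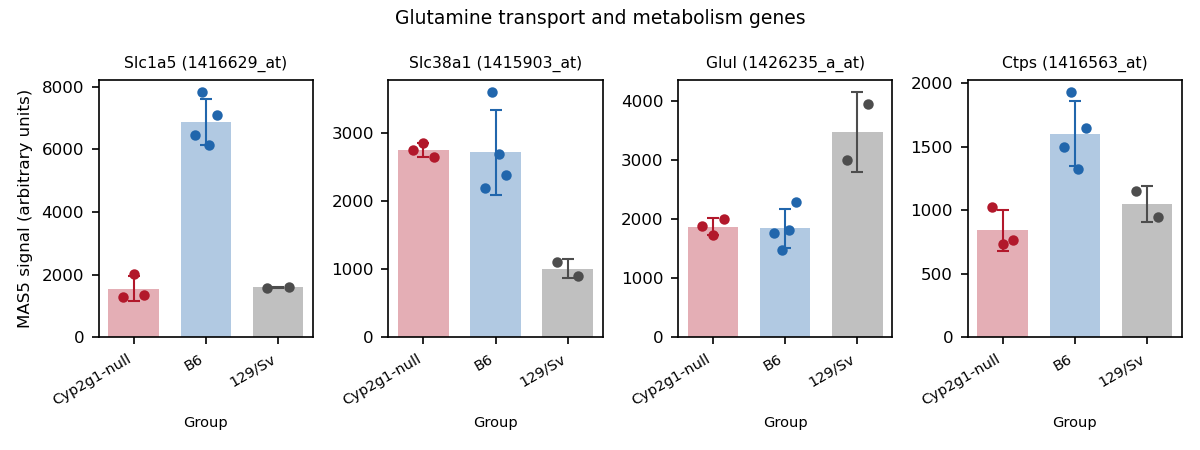
MAS5 signal in arbitrary units of Slc1a5, Slc38a1, Glul and Ctps in 3 null, 4 B6 and 2 129/Sv arrays; bars are means, error bars are SD and points are arrays, and each panel has its own scale from 0. Null means are close to 129/Sv for Slc1a5 and to B6 for Slc38a1 and Glul, and lie below B6 for Ctps.

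No upstream sensor was called. Among 24 probe sets of 13 genes of the eIF2 kinases and the eIF2 cycle, none was called by limma in any comparison, and 4 in null against B6, 5 in null against 129/Sv and 3 in B6 against 129/Sv had an unadjusted p under 0.05. Over all probe sets those shares were 14.4%, 12% and 17.4%. Eif2s2, the eIF2 beta subunit, has 6 tested probe sets, of which the brightest, 1417712_at, read 21439, 15215 and 19549 in null arrays, 22799.7, 26490.1, 24735 and 26474 in B6 arrays and 20462 and 21743 in 129/Sv arrays. The null arrays lay below all B6 arrays, with a log2 fold change of -0.44 (SE 0.108) and an adjusted p of 0.0537 in the test and of 0.0269 to 0.242 over the alternatives. The other Eif2s2 probe sets ran from -0.38 to 0.19 in null against B6, with 1448819_at (0.12) and 1441023_at (0.19) above 0, and none was called. Ppp1r15b, a phosphatase subunit that reverses eIF2 phosphorylation, had null arrays that overlapped B6 but lay below both 129/Sv arrays. Its log2 fold change was -0.37 for null against B6 (adjusted p = 0.278) and -0.42 for null against 129/Sv (adjusted p = 0.349). Of 19 probe sets of bZIP partners and other ATF4-induced regulators, none was called, with 3 in null against B6, 0 in null against 129/Sv and 5 in B6 against 129/Sv under an unadjusted p of 0.05, beside the shares of all probe sets just given. The brightest were Nupr1, a stress-induced chromatin protein, and Herpud1, an endoplasmic reticulum stress protein, whose log2 fold changes in null against B6 were 0.10 and -0.17. Of 23 probe sets of other serine, one-carbon, proline and transaminase enzymes, again none was called, with 1, 1 and 5 under an unadjusted p of 0.05 in the same comparisons, beside the same shares. Their median in null against B6 was -0.16, against 0.02 for all tested. Its brightest members, Aldh18a1, the first enzyme of proline synthesis, and Pck2, mitochondrial PEP carboxykinase, gave -0.23 and -0.09.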

How the data were processed

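Total RNA from pooled lateral nasal glands was labelled with biotin and hybridised to 9 1-colour Affymetrix arrays, per the labels' protocols. The authors deposited linear signal intensities, and the submitters' processing notes name MAS5 as the tool, with no version in the sources used here. Every array had a mean of 1500.6 once 2% of values were trimmed at each end, which shows a scaling to 1 target before deposit. No detection calls were used. The number of arrays limits the precision, and nothing in the labels ties the pools to a batch.

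Of 22690 probe sets, 64 controls were left out. Of the other 22626, 20380 had 1 symbol in the platform annotation, 691 several and 1555 none. A RefSeq table, used for names and chromosomes only, held the gene IDs of 20351 and changed 0 symbols. All 9 columns were matched to samples by their titles. The scale of all tests was log2(signal + 16), without renormalizing, which understates the change of dim probe sets. Probe sets above their array's median on at least 2 arrays were kept, 12575 in all. Group means were fitted over all 9 arrays by lmFit and eBayes (trend = TRUE) of limma 3.58.1, run in R 4.3.3, so the 2 129/Sv arrays share the spread of the other groups. P-values are two-sided and Benjamini-Hochberg adjusted over all probe sets kept, with a threshold of 0.05. The fit was tested on simulated data with known changes. Relations across arrays are Pearson's r and Spearman's rho with exact two-sided permutation p-values (Python 3.11.15, numpy 2.4.6, scipy 1.17.1).

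Named are all member probe sets, up to 4 called genes of each wider list (where fewer than 2 passed, its 2 brightest), and the 8 genes most like Asns. Members, lists and markers were chosen with earlier results of these data known. The main fit used no pairing by the replicate numbers of the titles. Deviations of same-numbered arrays from their group means correlated between -0.075 and 0.0963. Alternatives changed the scaling, pseudocount, filter, probe sets, model and arrays included. The arrays of each group are separate pools per the labels, and p-values measure the spread between pools.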

Additional observations from a re-analysis of the deposited data

Results flagged for a closer look

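The 21 member probe sets were examined for a B6 array far from the other 3, where chance alone picks out about 1 set in 20, and 2 were found. Asns 1451095_at read 51500 on B6 array 2, while the other B6 arrays lay between 41845 and 42406, so the gap was 0.942 of the range. Atf4 1438992_x_at read 3289 on B6 array 1, while the others lay between 5736 and 6145, a gap of 0.857 of the range. The groups of 3 null and 2 129/Sv arrays are too small for this check.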

How the results depend on the processing

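The fold changes of Asns 1451095_at kept their direction and were not called under any of the 20 or 21 alternatives of each comparison. In null against B6 they ran from -0.17 to -0.07, in null against 129/Sv from -0.29 to -0.18, against the mean of both strains from -0.23 to -0.14, and in B6 against 129/Sv from -0.15 to -0.04. Asns 1433966_x_at was also called under none, but in null against B6 it ran from -0.04 to 0.09 and so changed direction. The exact permutation difference of Asns, -0.17, was -0.16 (p = 0.155) with quantile normalization and from -0.19 to -0.13 with each array left out, alternatives chosen after seeing the data. No relation to Asns passed adjustment under 4 other scales.

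Member probe sets called in null against B6, 0, were 1 with array weights (Atf4 1438992_x_at), 2 without B6 arrays 1 and 2, and 0 to 2 with each array left out. In B6 against 129/Sv, 1, they were 5 without B6 arrays 1 and 2 and 1 to 6 with each array left out. Against 129/Sv and against the mean, 1 each, they stayed 1 with each array left out. With 1 probe set per gene they were 0 in null against 129/Sv, 0 against the mean and 0 in B6 against 129/Sv, since the Phgdh probe set called is not that gene's brightest. With the 6 wild-type arrays as 1 group, against the mean, they were 0.

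Over all probe sets, calls in null against B6, 274, were 154 in eBayes without trend, 490 with array weights and 542 without B6 arrays 1 and 2 (each array left out, 153 to 611). In null against 129/Sv, 256, they were 165 with 1 probe set per gene, which tests fewer, and 166 without trend (127 to 326). Against the mean, 154, they were 96 with 1 probe set per gene, 59 without trend, 291 with array weights, 4 with the wild types as 1 group and 386 without B6 arrays 1 and 2 (58 to 292). In B6 against 129/Sv, 653, they were 407 with 1 probe set per gene (341 to 863). Other causes were not tested. With equal array medians, 55.4% of calls were higher in null against 129/Sv, where the main share was 69.1%, and 50.3% against the mean, where it was 61.7%. The replicate block gave 0, 1, 1 and 1 member calls and 221, 281, 138 and 558 calls over all probe sets in null against B6, against 129/Sv, against the mean and in B6 against 129/Sv, and changed no member's call. Nothing in the labels ties B6 replicate 1 to 129/Sv replicate 1 beyond the number. Their deviations from group means correlated at 0.0963, the highest value among same-numbered arrays, and whether they shared any handling was not tested. Signal under the array median limits Slc7a11, and signal near or under it limits Trib3, Ddit3 and Shmt2 1434204_x_at.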

Other observations

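Other arms of the unfolded protein response and the tRNA synthetases, which overlap with ATF4 targets, held a few calls. Of 37 probe sets of other unfolded protein response genes, 1 was called higher and 1 lower in null against B6, where 2.18% of all probe sets were called. In B6 against 129/Sv, 2 were called higher and 2 lower, against 5.19% of all. Pdia6, a disulphide isomerase of the endoplasmic reticulum on chromosome 12, read 4785, 6395 and 6837 in null arrays, 10044, 14081, 13201 and 13569 in B6 arrays, and 5837 and 7150 in 129/Sv arrays. The null and 129/Sv arrays overlapped under all B6 arrays, with a log2 fold change of -1.09 for null against B6 (limma adjusted p = 0.000855) and of 0.96 for B6 against 129/Sv (adjusted p = 0.00247). Hyou1, a chaperone of the same compartment on chromosome 9, ran the other way. It read 2550, 1927 and 1616 in null arrays, 711, 1164, 828 and 1084 in B6 arrays, and 1821 and 2150 in 129/Sv arrays. All B6 arrays lay below the others, at 1.09 for null against B6 (adjusted p = 0.00700) and -1.08 for B6 against 129/Sv (adjusted p = 0.00898). The Hyou1 calls did not pass without null array 1 (against B6) and without 129/Sv array 2 (B6 against 129/Sv), and that of Pdia6 in B6 against 129/Sv did not pass without 129/Sv array 1. The 2 other Hyou1 probe sets gave 0.55 (adjusted p = 0.0521) and 0.32 (adjusted p = 0.615) for null against B6, and in B6 against 129/Sv 1423291_s_at was called as well, at -0.65 (adjusted p = 0.0228). Dnajc3, the eIF2 kinase inhibitor P58IPK, was called in B6 against 129/Sv on 1 of its 5 probe sets, at 0.61 (adjusted p = 0.0256), a call lost under 6 of 20 alternatives.

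Of 31 tRNA synthetase probe sets, null against B6 called 1 lower, where 2.18% of all probe sets were called. This was Farsb 1423709_s_at, a subunit of the phenylalanine enzyme, which read 2490, 2310 and 2449 in null arrays, 2880, 3667, 3626 and 3501 in B6 arrays, and 2565 and 2705 in 129/Sv arrays. The null arrays lay below all others, with a log2 fold change of -0.49 (adjusted p = 0.0351), while the other Farsb probe sets tested gave -0.23 and 0.02, not called. The Farsb call was lost under 9 of 21 alternatives, among them each null array left out and B6 array 2, 3 or 4 left out. B6 against 129/Sv, with 5.19% of all probe sets called, called Eprs higher on 1 probe set, at 1.06 (adjusted p = 0.0242), and Vars lower, at -0.62 (adjusted p = 0.0457), calls lost under 8 of 20 and 14 of 21 alternatives.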
